A study of Mus musculus with 25 samples.

Results

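Group 1 innate lymphoid cells (G1-ILCs) of the salivary gland (SG) were compared with natural killer (NK) cells of the adult liver (AL) in bulk RNA-seq libraries of sorted cells, 2 libraries a side. Libraries were taken by their labels, and the members of the comparison were the genes that passed a count filter: 14123 of the 46078 genes in the count table. SG G1-ILCs were sorted as CD3-NK1.1+NKp46+CD49a+CD49b+ cells and AL NK cells as CD3-NK1.1+NKp46+CD49a-CD49b+ cells, both from C57BL/6 wild type mice aged 8 weeks. The series held 25 libraries in 8 groups. The other 6 groups were AL 7R- ILC1s (4 libraries) and AL 7R+ ILC1s (3), sorted as CD49a+CD49b lo cells without and with IL-7R, small intestinal lamina propria (LPL) ILC1s (4) sorted on CD27 and IL-7R, bone marrow (BM) immature ILC1s (3) and BM NK cells (3), and fetal liver (FL) G1-ILCs (4). All were wild type C57BL/6, adult groups aged 8 weeks and fetal livers taken at embryonic day 18.5, and all gave the estimate of the spread between libraries.

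The gate of SG G1-ILCs takes cells with both integrins that separate ILC1s (CD49a) from NK cells (CD49b) in the liver, so it does not divide the gland into ILC1s and NK cells. The groups also differed in preparation. Salivary glands were minced and digested at warm temperature with collagenase before Percoll separation, whereas livers were dissociated mechanically, so tissue, gate and preparation cannot be told apart in this comparison. LPL ILC1s were the other group prepared by enzymatic digestion, and their values are given beside the results where they bear on it. In bulk RNA, fewer cells with a transcript and less transcript per cell cannot be told apart either. The study calls its replicates biological, but no label says whether the libraries of a group came from separate animals, and p-values measure only the spread between these samples.

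G1-ILCs are the innate lymphocytes that express T-bet and make interferon-γ. NK cells circulate, depend on Eomes, carry Ly49 receptors that read MHC class I, and kill through perforin and granzymes, whereas ILC1s stay in tissue, carry CD49a and CXCR6, and have a smaller cytotoxic program in most organs. Salivary gland G1-ILCs are known for carrying features of both, and TGF-β is known to shape them, inducing integrins such as CD49a and CD103 that hold lymphocytes in epithelium.

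The SG libraries held 3762158 and 4186256 counts and the AL NK libraries 5328178 and 3973227, within the series' range of 2302643 to 7995906. Levels are given as CPM, counts relative to the library's total after TMM scaling, in the order of replicates 1 and 2. Differences are log2 fold changes ± SE from edgeR's quasi-likelihood test, with Benjamini-Hochberg adjustment over all 14123 genes. Calls were made where the adjusted p was below 0.05. An exact permutation test of 2 against 2 libraries cannot go below 0.333, so the calls rest on the model's estimate of the spread. That estimate was taken over all groups. With only the 4 libraries of the comparison in the fit, 3965 genes were called. The fit over all groups called 3460 of them in the same direction. Of the 14123 genes, 2132 (15.1%) were higher and 1686 (11.9%) were lower in SG G1-ILCs, 27.0% in all. Counts of called genes in the lists below are to be read beside these shares. Without regard to the test, both SG libraries were above both AL NK libraries in 31.7% of genes and below both in 31.4%, so that the groups did not overlap in 63.1%. The median log2 fold change over all genes was -0.02. The called genes had a median absolute log2 fold change of 1.43 where higher and 1.10 where lower, and 384 of the higher genes and 124 of the lower genes passed 4 on that scale.

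The genes of the sorting gate were read first. Itga1, which encodes CD49a, was at 447 and 595 CPM in SG G1-ILCs, against 6.13 and 0.479 CPM in AL NK cells, with no overlap (log2 fold change 7.16 ± 0.45, edgeR adjusted p = 1.52e-12). Without AL NK 1, the library with most of the NK reads of this gene, the log2 fold change was 10.01, and without AL NK 2 it was 6.39. Itga2, which encodes CD49b, was at 10.2 and 12.9 CPM in SG G1-ILCs, against 123 and 119.6 CPM in AL NK cells (log2 fold change -3.39 ± 0.34, edgeR adjusted p = 1.54e-08): the SG libraries were far below both NK libraries although the gate took CD49b+ cells, and they were near the 17.2 and 21.7 CPM of AL 7R- and 7R+ ILC1s. Ncr1, encoding NKp46, was at 512 and 501 CPM in SG G1-ILCs, against 1641 and 1625 CPM in AL NK cells (log2 fold change -1.69), and Klrb1c, encoding NK1.1, was at 1303 and 1075 CPM in SG G1-ILCs, against 2300.5 and 2029.7 CPM in AL NK cells (log2 fold change -0.86). Both genes were read in SG G1-ILCs at a lower level than in AL NK cells. Cd3e, a signalling chain of the T cell receptor complex, was at 2.54 and 2.53 CPM in SG G1-ILCs, against 0 and 0 CPM in AL NK cells, at least 8.20-fold higher (edgeR adjusted p = 0.0163), and that call was lost without SG G1-ILC 2, AL NK 1 or AL NK 2 (edgeR adjusted p = 0.0503, 0.110 and 0.0728).

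**Figure D1:**
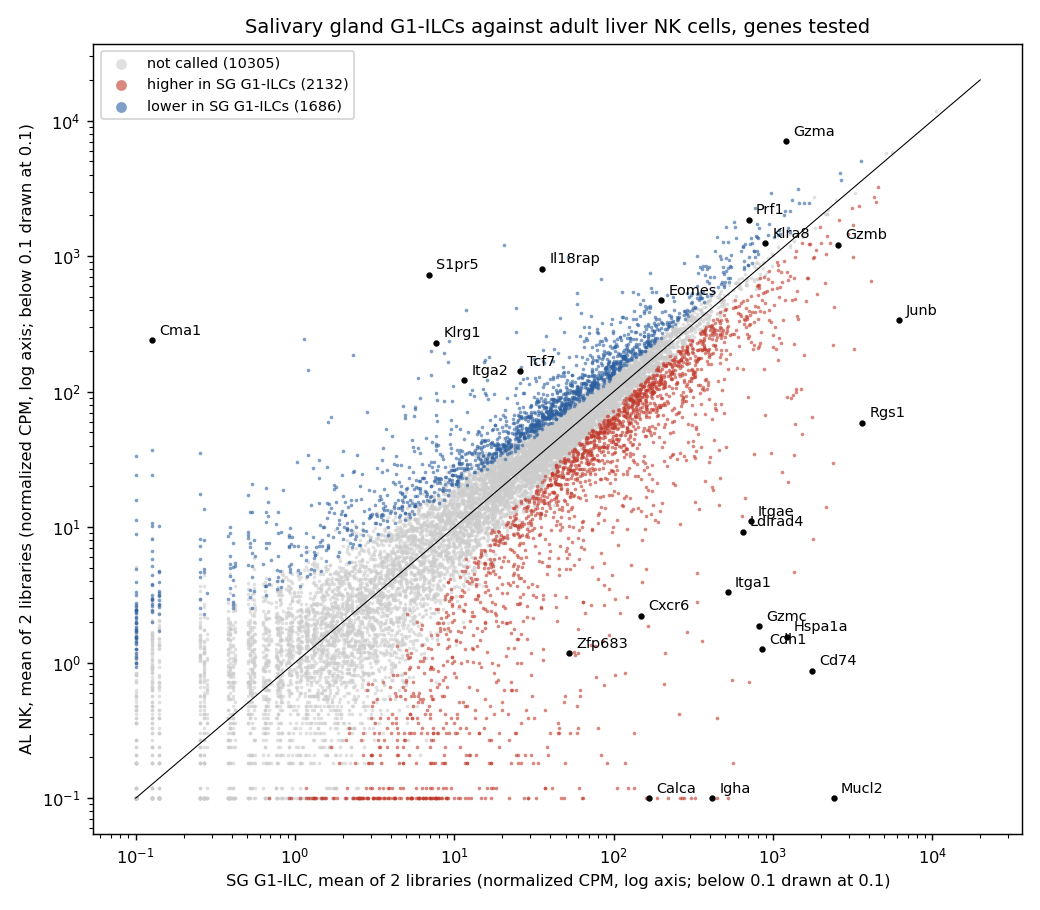
Each point is 1 of the 14123 genes tested, at its mean CPM in SG G1-ILCs (x axis, log scale) and in AL NK cells (y axis, log scale), with means under 0.1 CPM drawn at 0.1; 2132 genes called higher in SG G1-ILCs are red, 1686 called lower are blue and 10305 not called are grey. Secretory gland transcripts such as Mucl2 lie at the floor of the AL NK axis, and S1pr5 and Cma1 lie far to the NK side.

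By size of change among genes with a mean of at least 32 CPM and no overlap between groups, the 12 leading higher genes were Mucl2, Pip, Igha, Scgb1b27, Osgin1, H2-Aa, Cd14, Scgb2b26, Prol1, Car6, Cd74 and H2-Eb1. Most of these are not lymphocyte genes. Mucl2, a mucin-like secretory protein, was at 3538 and 1275 CPM in SG G1-ILCs, against 0 and 0 CPM in AL NK cells, at least 7793-fold higher. Pip, the prolactin-induced protein of saliva and tears, was at 640.2 and 402 CPM in SG G1-ILCs, against 0 and 0 CPM in AL NK cells, at least 1687-fold higher. Both SG libraries held these transcripts, and both NK libraries were at 0. The secretoglobins Scgb1b27 and Scgb2b26 (411 and 241 CPM and 223 and 97.8 CPM in SG G1-ILCs, 0 in AL NK cells), the proline-rich secretory gene Prol1 (601 and 292 CPM in SG G1-ILCs, against 0.180 and 0 CPM in AL NK cells) and Car6, the secreted carbonic anhydrase of saliva (779 and 352 CPM in SG G1-ILCs, against 0.361 and 0 CPM in AL NK cells), had the same pattern. All 6 secretory genes were read in both SG libraries, at a higher level in SG G1-ILC 1 than in SG G1-ILC 2. Without SG G1-ILC 1, the log2 fold change was 15.65 for Mucl2 instead of 16.55, 11.94 for Scgb2b26 instead of 12.64, 11.16 for Prol1 instead of 11.77 and 10.58 for Car6 instead of 11.26. Without AL NK 1 or AL NK 2, Prol1 gave 14.11 and 11.08, and Car6 gave 14.45 and 10.51. Scgb2b26 has a close paralog, and reads could be shared between the copies.

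By the same rule, leading lower genes were Cma1, Serpinb9b, Gm14125, S1pr5, As3mt, Elovl7, Klf3, Klrg1, Xdh, Ly6c2 and Cmah. Most of them belong to the mature NK cell and are described with their groups below. Of the others, As3mt, an arsenite methyltransferase, was at 3.10 and 1.52 CPM in SG G1-ILCs, against 203 and 169 CPM in AL NK cells (log2 fold change -6.34 ± 0.55, edgeR adjusted p = 9.36e-10; -6.92 without SG G1-ILC 1). Elovl7, which elongates fatty acids, was at 0.564 and 2.78 CPM in SG G1-ILCs, against 74.1 and 56.1 CPM in AL NK cells (log2 fold change -5.23 ± 0.59, edgeR adjusted p = 9.17e-08; -4.55 without SG G1-ILC 1 and -6.80 without SG G1-ILC 2). Both genes were near 0 in SG G1-ILCs and well read in NK cells. Xdh, encoding xanthine dehydrogenase, was at 8.18 and 6.06 CPM in SG G1-ILCs, against 188 and 212 CPM in AL NK cells (log2 fold change -4.82). Cmah, which makes the sialic acid Neu5Gc from Neu5Ac, was at 3.10 and 2.53 CPM in SG G1-ILCs, against 68.5 and 72.2 CPM in AL NK cells (log2 fold change -4.64). The gene model Gm14125 was at 1.41 and 1.01 CPM in SG G1-ILCs, against 160.4 and 129 CPM in AL NK cells (log2 fold change -6.89). The rule took only genes without overlap between groups, so the absence of overlap in these genes is no separate result.

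Markers of the gland's own epithelium were searched as a list of 24, of which 6 passed the count filter and 4 were called higher, none lower. Their summed level was 735 to 1301 CPM in SG G1-ILCs and 5.27 to 8.12 CPM in AL NK cells, almost all of it Pip and Prol1. Of the 23 markers in the table, 18 were under 5 CPM in both SG libraries, among them amylase (Amy1), the kallikrein Klk1, and the keratins Krt5, Krt14 and Krt19. Some secreted products of the gland were thus read at high levels in SG libraries in which most of the listed markers were near 0. Their part in the other results was not tested. Epcam, an epithelial adhesion molecule that was also read in liver ILC1s (53.8 CPM in AL 7R- and 11.9 CPM in AL 7R+ ILC1s), was at 22.3 and 26.3 CPM in SG G1-ILCs, against 1.26 and 0 CPM in AL NK cells (log2 fold change 5.06 ± 0.64, edgeR adjusted p = 5.94e-07; 9.91 without AL NK 1 and 4.23 without AL NK 2).

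Myeloid markers were higher as well. Of 22, 18 passed the filter, 12 were called higher and 1 lower, with a summed level of 4227 to 4430 CPM in SG G1-ILCs and 232 to 238 CPM in AL NK cells. Itgax held almost the whole AL NK sum, at 224 and 221 CPM, and was at 764 and 759 CPM in SG G1-ILCs. Cd74, the invariant chain of MHC class II, was at 1865 and 1665 CPM in SG G1-ILCs, against 0.541 and 1.20 CPM in AL NK cells (log2 fold change 11.02 ± 1.00, edgeR adjusted p = 1.82e-09). H2-Aa, an MHC class II chain, was at 268 and 286 CPM in SG G1-ILCs and at 0 in both AL NK libraries, at least 898-fold higher. Cd14, the lipopolysaccharide co-receptor of monocytes and macrophages, was at 157 and 380.3 CPM in SG G1-ILCs and 0 in AL NK cells, at least 869.6-fold higher (12.62 without SG G1-ILC 2 for a log2 fold change of 13.38). The AL NK libraries held almost no reads of these 3 genes.

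Genes that define tissue macrophages were read in both SG libraries as well. C1qa, C1qb and C1qc, which encode the complement C1q chains, were at 84.9 and 81.4, 212 and 160.2 and 161 and 106 CPM in SG G1-ILCs and had 2, 1 and 1 reads over both AL NK libraries. Csf1r, the receptor for macrophage colony-stimulating factor, was at 132 and 136 CPM in SG G1-ILCs, against 0.361 and 0.240 CPM in AL NK cells, which is 433-fold higher (95% counting interval 148 to 2105). Lyz2, encoding lysozyme, was at 111 and 71.5 CPM in SG G1-ILCs, against 0.361 and 0 CPM in AL NK cells, 437-fold higher (95% counting interval 120.5 to 3615), and Adgre1, encoding F4/80, was at 31.9 and 31.6 CPM in SG G1-ILCs, against 0.541 and 0.240 CPM in AL NK cells. With BM NK cells in place of AL NK cells, a setting added after seeing the data, Lyz2 was not called (log2 fold change 0.56, edgeR adjusted p = 0.725). For the 6 macrophage genes named here, both SG libraries were far above both AL NK libraries. The neutrophil genes S100a8 and S100a9 were at 0 in all 4 libraries, and 9 of the 22 markers were under 5 CPM in both SG libraries. Some of these fitted differences rest on a few NK reads and move with 1 NK library. The log2 fold change of C1qb was 12.84 without AL NK 1 and 9.82 without AL NK 2. That of C1qc was 8.97 without AL NK 1 and 12.38 without AL NK 2. That of Lyz2 was 11.81 without AL NK 1 and 7.87 without AL NK 2, and that of Adgre1 was 6.90 without AL NK 1. None of these turned. The class II gene H2-Eb1 was at 281 and 239.5 CPM in SG G1-ILCs, against 0.180 and 0 CPM in AL NK cells, and its log2 fold change was 13.33 without AL NK 1 and 10.30 without AL NK 2.

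Igha, the constant region of the IgA heavy chain, was at 423 and 411 CPM in SG G1-ILCs and at 0 in both AL NK libraries, at least 1350.1-fold higher. Other B cell genes were at or near 0: Cd79a, the B cell receptor signalling chain, was at 0 in both SG libraries, Igkc, which was read in other groups of the series, was at 0 in all 4 libraries, and 9 of 11 B cell markers were under 5 CPM in SG G1-ILCs. The 2 B cell markers called higher were the heavy chain constant regions Ighm (749 and 751 CPM in SG G1-ILCs, against 217 and 198 CPM in AL NK cells; log2 fold change 1.85) and Ighd (log2 fold change 4.46). Ighm was also read at 466 and 535 CPM in AL 7R- and LPL ILC1s. T cell markers as a list summed to 1448 to 1534 CPM in SG G1-ILCs and 1875 to 2208 CPM in AL NK cells, with 2 called higher and 3 lower of 14 tested. Of the hepatocyte markers, 18 of 20 were under 5 CPM in SG G1-ILCs, and Apoe, an apolipoprotein also made by macrophages, held almost the whole sum (1369.7 and 1360.4 CPM in SG G1-ILCs, against 5.05 and 4.32 CPM in AL NK cells).

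**Figure D2:**
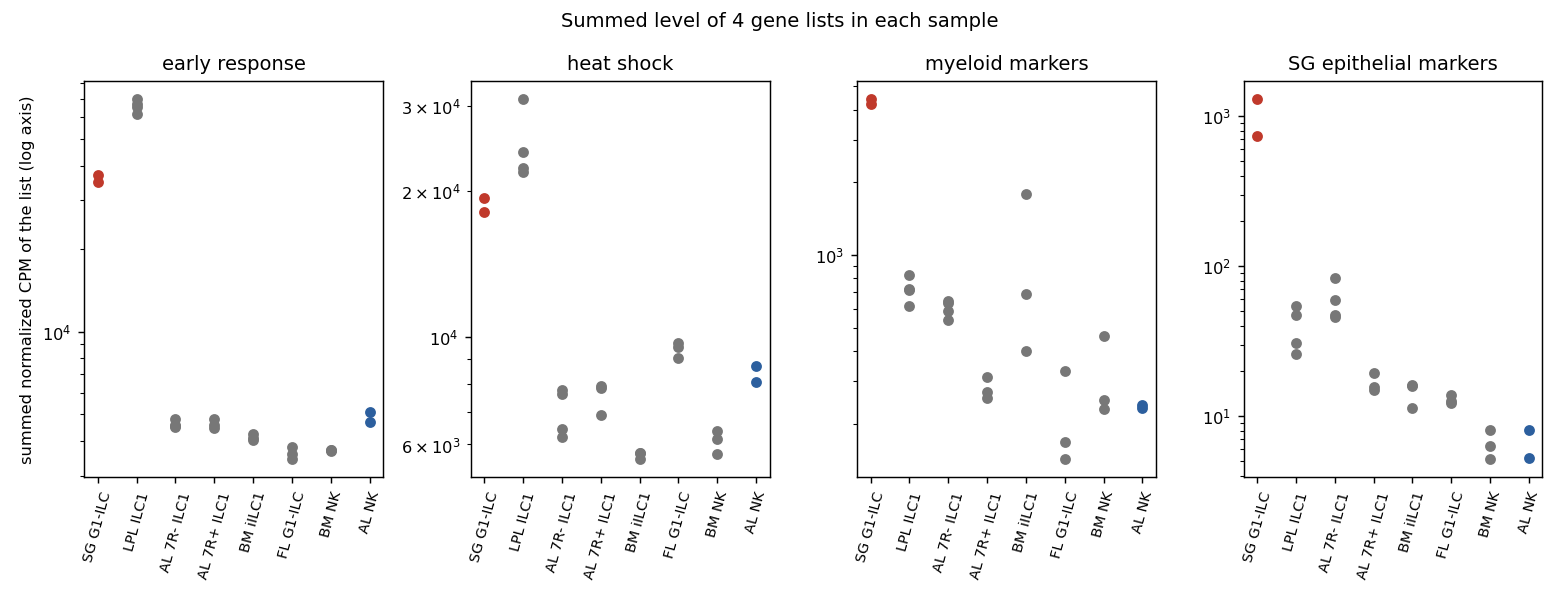
Summed CPM (log scale) per sample of the 46 early response genes, 22 heat shock genes, 22 myeloid markers and 24 SG epithelial markers searched, in the 8 groups; each point is 1 sample. The early response sum was 35001 to 37024 CPM in SG G1-ILCs, 61522 to 69856 CPM in LPL ILC1s and 4680 to 5106 CPM in AL NK cells, while the myeloid and epithelial sums stood highest in SG G1-ILCs.

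Among 35 transcription factors of innate lymphocytes, 12 were higher and 12 lower in SG G1-ILCs, with a median log2 fold change of -0.30. Tbx21, encoding T-bet, which G1-ILCs share, was at 682 and 735 CPM in SG G1-ILCs, against 959 and 1007 CPM in AL NK cells (log2 fold change -0.47 ± 0.10, edgeR adjusted p = 0.000974): the groups did not overlap, but the difference was small. Eomes, the T-box factor that marks NK cells, was at 191 and 208 CPM in SG G1-ILCs, against 477 and 467 CPM in AL NK cells, and AL 7R- and 7R+ ILC1s were at 3.50 and 2.25 CPM. The SG libraries were thus below both NK libraries (log2 fold change -1.24 ± 0.43, edgeR adjusted p = 0.0337) and far above liver ILC1s (log2 fold change over their mean 5.98, edgeR adjusted p = 1.71e-12). The call against AL NK cells was lost when any 1 of the 4 libraries was left out (edgeR adjusted p = 0.163, 0.115, 0.107 and 0.0950 without SG G1-ILC 1, SG G1-ILC 2, AL NK 1 and AL NK 2) and with DESeq2 (adjusted p = 0.270). The log2 fold change stayed between -1.31 and -1.19.

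Factors tied to terminal NK cell maturation and recirculation were lower. Zeb2, which drives late NK cell maturation downstream of T-bet, was at 32.7 and 42.5 CPM in SG G1-ILCs, against 242 and 273 CPM in AL NK cells (log2 fold change -2.77). Klf2, which maintains receptors for egress and homing, was at 161 and 182 CPM in SG G1-ILCs, against 599.8 and 561 CPM in AL NK cells (log2 fold change -1.76). Prdm1, encoding Blimp-1, was at 6.77 and 8.59 CPM in SG G1-ILCs, against 115 and 80.1 CPM in AL NK cells (log2 fold change -3.66 ± 0.26, edgeR adjusted p = 1.92e-11), and was also lower than in liver ILC1s (47.7 and 26.9 CPM in AL 7R- and 7R+ ILC1s). All SG libraries lay below all NK libraries for these 3 genes.

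Tcf7, encoding TCF-1, and Lef1, its HMG-box relative, were at 24.5 and 27.0 CPM and 16.9 and 13.9 CPM in SG G1-ILCs, against 176 and 108 CPM and 175 and 158 CPM in AL NK cells (log2 fold changes -2.46 and -3.43). Id2, the inhibitor of E proteins needed by all ILCs, was at 1244 and 1387 CPM in SG G1-ILCs, against 2801 and 2438 CPM in AL NK cells (log2 fold change -0.99). Klf3, a repressor of the same family as Klf2, was at 6.20 and 17.4 CPM in SG G1-ILCs, against 409 and 392.5 CPM in AL NK cells (log2 fold change -5.06 ± 0.29, edgeR adjusted p = 3.65e-13; -6.01 without SG G1-ILC 2). All 4 genes were lower in both SG libraries.

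On the higher side stood Zfp683, encoding Hobit, a residency factor of liver ILC1s, at 61.8 and 43.5 CPM in SG G1-ILCs, against 0.902 and 1.44 CPM in AL NK cells (log2 fold change 5.50 ± 0.34, edgeR adjusted p = 1.42e-12). Liver ILC1s were higher still, at 188 and 154 CPM in the 7R- and 7R+ groups. Hic1, a repressor linked to lymphocytes of the gut, was at 47.9 and 52.3 CPM in SG G1-ILCs, against 4.51 and 5.27 CPM in AL NK cells (log2 fold change 3.36). Ahr, the aryl hydrocarbon receptor, was at 47.1 and 57.6 CPM in SG G1-ILCs, against 10.5 and 10.1 CPM in AL NK cells (log2 fold change 2.35). Neither gene overlapped between groups. Runx3, which works with T-bet and is used by TGF-β signalling in lymphocytes, was at 371 and 443 CPM in SG G1-ILCs, against 201 and 178 CPM in AL NK cells (log2 fold change 1.10). Zfp683 was thus higher than in AL NK cells while Prdm1, its close relative, was lower. Irf8, a factor of NK cell activation, was at 1169 and 1524 CPM in SG G1-ILCs, against 1103 and 1491 CPM in AL NK cells and was not called (log2 fold change 0.06 ± 0.16, edgeR adjusted p = 0.844).

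The NK cell receptors included Ly49 genes, nearly all of them not called, and other lectin receptors, most of them lower. Of 34 receptors listed, 32 were tested, 6 were higher and 12 lower, with a median of -0.17. Of 11 Ly49 (Klra) genes tested, 1 was higher and none lower, with a median of 0.15. Klra8, encoding the activating receptor Ly49H that binds a cytomegalovirus protein, was at 963 and 828 CPM in SG G1-ILCs, against 1139 and 1361 CPM in AL NK cells (log2 fold change -0.48 ± 0.33, edgeR adjusted p = 0.317). Klra4, encoding Ly49D, was at 764 and 747 CPM in SG G1-ILCs, against 855 and 851 CPM in AL NK cells (log2 fold change -0.18 ± 0.22, edgeR adjusted p = 0.610). Klra7, encoding Ly49G2, was at 658 and 712 CPM in SG G1-ILCs, against 573 and 754 CPM in AL NK cells (log2 fold change 0.05 ± 0.43, edgeR adjusted p = 0.955). For Klra7 the libraries of the groups overlapped, and for Klra8 and Klra4 the SG libraries lay just below the AL NK libraries. AL 7R- ILC1s had 18.3, 3.33 and 22.9 CPM and AL 7R+ ILC1s 1.83, 0.293 and 5.24 CPM of the same genes, and SG G1-ILCs over the mean of the liver ILC1 groups had log2 fold changes of 7.31, 9.57 and 6.03 (edgeR adjusted p = 8.92e-17, 1.60e-21 and 1.91e-13). Against liver ILC1s, 2711 of all genes tested (19.2%) were higher and 2194 (15.5%) lower. Of the 11 Ly49 genes, 10 were higher and 1 lower against them. The lower gene was Klra5, at 33.8 and 13.4 CPM in SG G1-ILCs and 516 CPM in AL 7R- ILC1s (log2 fold change -2.02, edgeR adjusted p = 0.000466). Klra9 was well read in AL 7R- ILC1s, at 446 CPM, and its log2 fold change was 1.68. The Ly49 genes are near copies of each other, so reads could be assigned to the wrong member. Calls of some moved with the setting: Klra8 was called lower with the 4 libraries alone (log2 fold change -0.45, edgeR adjusted p = 0.0138) and with no count filter (-0.50, edgeR adjusted p = 0.0166). Klra1 was called higher with the 4 libraries alone (0.55, edgeR adjusted p = 0.0178), and Klra9 with BM NK cells in place of AL NK cells (0.87, edgeR adjusted p = 0.00819). The 1 gene called higher was Klra2, at 3.67 and 6.82 CPM in SG G1-ILCs, against 0.361 and 0.479 CPM in AL NK cells.

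Klrg1, an inhibitory receptor for cadherins that marks mature NK cells, was at 7.05 and 8.34 CPM in SG G1-ILCs, against 215 and 246 CPM in AL NK cells (log2 fold change -4.90 ± 0.36, edgeR adjusted p = 3.68e-11). Klrk1, encoding the activating receptor NKG2D, was at 753 and 783 CPM in SG G1-ILCs, against 2384 and 2176 CPM in AL NK cells (log2 fold change -1.57). Klrd1, encoding CD94, its relative that pairs with NKG2A, was at 845 and 756 CPM in SG G1-ILCs, against 1419.8 and 1306 CPM in AL NK cells (log2 fold change -0.77). Slamf6, a homotypic receptor of the SLAM family, was at 0.564 and 2.02 CPM in SG G1-ILCs, against 26.2 and 28.3 CPM in AL NK cells (log2 fold change -4.34; -3.74 without SG G1-ILC 1 and -5.54 without SG G1-ILC 2). Klrb1b, a further lectin receptor, was called higher (log2 fold change 0.47, edgeR adjusted p = 0.0134). Klrg1, Klrk1, Klrd1 and Slamf6 did not overlap between groups, and Klrg1 and Slamf6 were near the floor in SG G1-ILCs.

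The receptors that were higher were mainly those that bind nectins and antibody. Tigit, an inhibitory receptor for nectin-family ligands, was at 292 and 293 CPM in SG G1-ILCs, against 49.97 and 65.2 CPM in AL NK cells (log2 fold change 2.35 ± 0.20, edgeR adjusted p = 6.59e-10). Cd96, a further receptor for the same ligands, was at 302 and 302 CPM in SG G1-ILCs, against 97.9 and 104 CPM in AL NK cells (log2 fold change 1.59). Cd226, the activating member, was at 135 and 117 CPM in SG G1-ILCs, against 50.3 and 67.4 CPM in AL NK cells (log2 fold change 1.10). All 3 members of this receptor group were higher without overlap. Fcgr3, encoding the antibody receptor CD16, which myeloid cells also express, was at 255 and 179 CPM in SG G1-ILCs, against 94.5 and 76.0 CPM in AL NK cells (log2 fold change 1.35). Cd244a, encoding 2B4, was at 610.0 and 632 CPM in SG G1-ILCs, against 599 and 609 CPM in AL NK cells and was not called (log2 fold change 0.04 ± 0.11, edgeR adjusted p = 0.839); it overlaps Ly9 on the opposite strand.

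**Figure D3:**
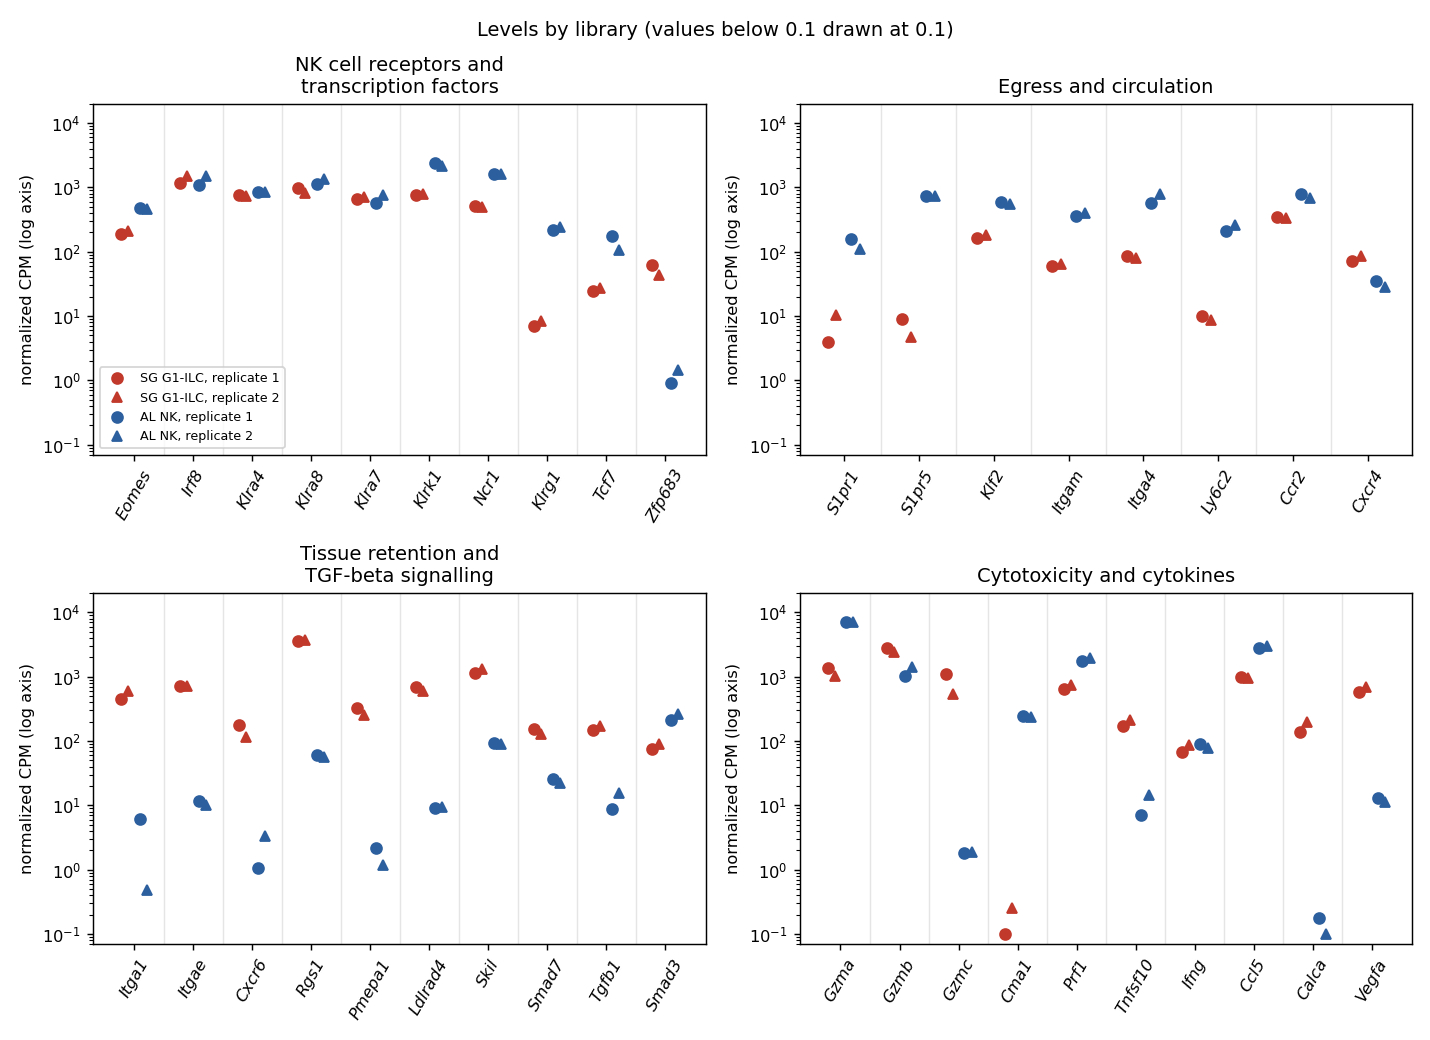
CPM (log scale) of genes in the 2 SG G1-ILC libraries (red, left) and the 2 AL NK libraries (blue, right), in panels of NK cell receptors and transcription factors, egress genes, retention and TGF-β genes, and cytotoxic and cytokine genes; circles are replicate 1 and triangles replicate 2. Points of the egress panel lie lower in SG G1-ILCs in all genes but Cxcr4, for example S1pr5 at 9.02 and 4.80 CPM in SG G1-ILCs and 731 and 734 CPM in AL NK cells, and Itgae lies higher, at 727 and 722 CPM in SG G1-ILCs and 11.9 and 10.3 CPM in AL NK cells.

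A list of egress and circulation genes was lower nearly throughout: 16 of 19 were lower and 2 higher, with a median of -1.86. Over all genes, 11.9% were lower and 15.1% higher, with a median of -0.02. Against the mean of liver ILC1s, 6 of the 19 were higher and 6 lower, with a median of 0.07 (over all genes, 19.2% higher and 15.5% lower). Against LPL ILC1s, 6 were higher and 10 lower (over all genes, 18.7% higher and 16.8% lower). The list was written with earlier results of these data known. Besides receptors for egress it held other genes, among them Ly6c2, Itgam and the protease gene Cma1. S1pr5, the sphingosine 1-phosphate receptor by which NK cells leave marrow and lymph nodes, was at 9.02 and 4.80 CPM in SG G1-ILCs, against 731 and 734 CPM in AL NK cells (log2 fold change -6.74 ± 0.39, edgeR adjusted p = 3.16e-13). S1pr1, the receptor used by most lymphocytes for egress, was at 3.95 and 10.4 CPM in SG G1-ILCs, against 157 and 109 CPM in AL NK cells (log2 fold change -4.19 ± 0.44, edgeR adjusted p = 2.39e-08; -5.07 without SG G1-ILC 2). S1pr4 was at 45.1 and 44.5 CPM in SG G1-ILCs, against 199 and 185 CPM in AL NK cells (log2 fold change -2.10). Each SG library was below each NK library for the 3 receptors, and the difference was largest for S1pr5.

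The integrins of the egress list were lower. Integrins as a list went both ways: of 22 tested, 9 were higher and 6 lower, with a median of 0.41. Over all genes, 15.1% were higher and 11.9% lower. Itgax, for example, was at 764 and 759 CPM in SG G1-ILCs, against 224 and 221 CPM in AL NK cells. Itga4, the α4 chain that binds endothelium, was at 86.9 and 79.6 CPM in SG G1-ILCs, against 576 and 787 CPM in AL NK cells (log2 fold change -3.03 ± 0.16, edgeR adjusted p = 5.96e-14). Itgam, encoding CD11b of mature NK cells, was at 59.8 and 65.2 CPM in SG G1-ILCs, against 364 and 402 CPM in AL NK cells (log2 fold change -2.61). Itgb2, the shared β2 chain, was at 594 and 568 CPM in SG G1-ILCs, against 1624 and 1657 CPM in AL NK cells (log2 fold change -1.50). For Itga4, Itgam and Itgb2, all SG values lay below all NK values. Ly6c2, encoding the Ly6C antigen of circulating cells, was at 9.87 and 8.59 CPM in SG G1-ILCs, against 213 and 263 CPM in AL NK cells (log2 fold change -4.69 ± 0.50, edgeR adjusted p = 3.51e-08). Ccr2, a chemokine receptor for exit from marrow, was at 342 and 331 CPM in SG G1-ILCs, against 796 and 696 CPM in AL NK cells (log2 fold change -1.15). Both were lower without overlap. Among the higher genes of the egress list was Cxcr4, which retains cells in marrow and tissue, at 73.0 and 85.2 CPM in SG G1-ILCs, against 34.8 and 28.3 CPM in AL NK cells (log2 fold change 1.32 ± 0.32, edgeR adjusted p = 0.00224). Cx3cr1, the fractalkine receptor, was at 13.5 and 28.3 CPM in SG G1-ILCs, against 29.2 and 83.4 CPM in AL NK cells and was not called (log2 fold change -1.42 ± 0.77, edgeR adjusted p = 0.186): replicates of both groups were far apart, and without AL NK 2 the log2 fold change was -0.49.

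Genes of tissue residency moved the other way: 20 of 22 were higher and 1 lower, with a median of 4.23. The list shares 7 genes with the early response list given below. Without them 13 of 15 were higher and 1 lower, with a median of 4.31. Against LPL ILC1s, a comparison added after seeing the data in which 18.7% of all genes were higher and 16.8% lower, 7 of the 22 were higher and 13 lower. Itgae, encoding CD103, which binds E-cadherin on epithelium, was at 727 and 722 CPM in SG G1-ILCs, against 11.9 and 10.3 CPM in AL NK cells (log2 fold change 6.02 ± 0.43, edgeR adjusted p = 1.67e-11). It was at 5.06 and 6.36 CPM in AL 7R- and 7R+ ILC1s and 2.19 CPM in LPL ILC1s, and thus stood highest in SG G1-ILCs of these groups. It overlaps Haspin on the opposite strand, which averaged 46.9 CPM in SG G1-ILCs and 54.7 CPM in AL NK cells. Cdh1, encoding E-cadherin itself, was at 783 and 921 CPM in SG G1-ILCs, against 0.361 and 2.16 CPM in AL NK cells (log2 fold change 9.51 ± 0.62, edgeR adjusted p = 3.72e-12; 8.60 without AL NK 1 and 11.10 without AL NK 2), and was also read in AL 7R- ILC1s (37.1 CPM).

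Cxcr6, the receptor for CXCL16 on ILC1s, was at 180.5 and 117 CPM in SG G1-ILCs, against 1.08 and 3.36 CPM in AL NK cells (log2 fold change 6.14 ± 0.37, edgeR adjusted p = 7.00e-13; 5.45 without AL NK 1 and 7.06 without AL NK 2). It was higher than in NK cells in both libraries and lower than in AL 7R- ILC1s, which had 915 CPM (log2 fold change over liver ILC1s -2.60, edgeR adjusted p = 1.34e-10). Gpr34, a receptor for lysophosphatidylserine, was at 133 and 112 CPM in SG G1-ILCs, against 0 and 0.240 CPM in AL NK cells, which is 1188-fold higher (95% counting interval 213 to 46994), near the 107 CPM of AL 7R- ILC1s. Inpp4b, a phosphoinositide phosphatase, was at 318 and 351 CPM in SG G1-ILCs, against 3.25 and 5.99 CPM in AL NK cells (log2 fold change 6.22 ± 0.31, edgeR adjusted p = 1.83e-14). Neither gene was read at more than a few CPM in NK cells. Cd69, which opposes S1P receptor 1 at the membrane, was at 509.6 and 443 CPM in SG G1-ILCs, against 94.0 and 111 CPM in AL NK cells (log2 fold change 2.22 ± 0.21, edgeR adjusted p = 5.46e-09). Tnfsf10, encoding TRAIL of ILC1s, was at 171 and 209.7 CPM in SG G1-ILCs, against 7.22 and 14.6 CPM in AL NK cells (log2 fold change 4.16 ± 0.31, edgeR adjusted p = 3.68e-11). The 5 genes had no overlap between groups. Prdm1 was the 1 lower gene of this list.

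**Figure D4:**
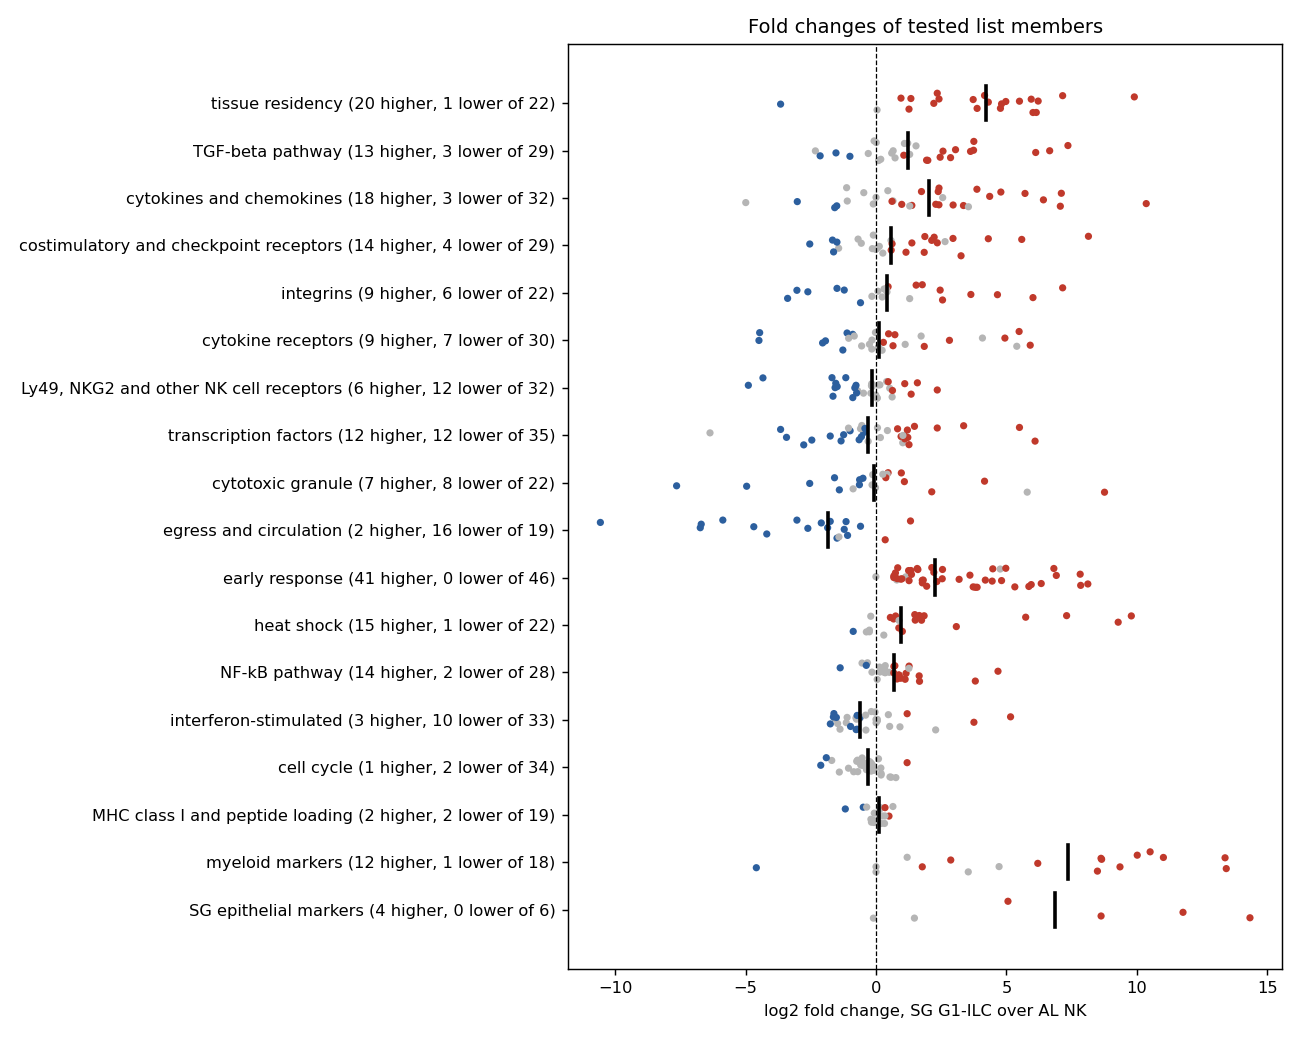
Log2 fold changes of SG G1-ILCs over AL NK cells for the tested members of 18 gene lists; each point is 1 gene, the bar is the list's median and the dashed line is the median of all 14123 genes (-0.02). The residency list (median 4.23) and the early response list (2.27) lie to the higher side, and the egress list (-1.86) to the lower side.

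The TGF-β pathway runs from ligands and activating integrins through receptors to SMAD proteins, whose targets include inhibitors that close the loop. Of 33 genes, 29 were tested, 13 were higher and 3 lower, with a median of 1.21, and the summed level was 4293 to 4451 CPM in SG G1-ILCs and 1135 to 1224 CPM in AL NK cells. LPL ILC1s, the other digested group, held 3180 to 3576 CPM, and against them 10 of the list were higher and 6 lower. The ligand Tgfb1 was at 149 and 171 CPM in SG G1-ILCs, against 8.84 and 15.3 CPM in AL NK cells (log2 fold change 3.74 ± 0.31, edgeR adjusted p = 3.73e-10). Itgav, the αv chain of integrins that release active TGF-β, was at 367 and 385 CPM in SG G1-ILCs, against 56.6 and 80.8 CPM in AL NK cells (log2 fold change 2.46). Nrros, which tethers latent TGF-β on myeloid cells and microglia, was at 29.3 and 44.0 CPM in SG G1-ILCs, against 150.3 and 175 CPM in AL NK cells and lower (log2 fold change -2.14).

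Of the receptors in the list, Tgfbr1, Tgfbr2, Tgfbr3, Acvr2a and Eng were higher, and Acvr1, Acvr1b, Bmpr1a and Bmpr2 were not called. Tgfbr1 was at 109 and 145 CPM in SG G1-ILCs, against 28.5 and 38.1 CPM in AL NK cells (log2 fold change 1.94 ± 0.26, edgeR adjusted p = 1.80e-06). Tgfbr2 was at 277 and 333 CPM in SG G1-ILCs, against 165 and 125 CPM in AL NK cells (log2 fold change 1.06 ± 0.15, edgeR adjusted p = 2.67e-06), and the accessory receptor Tgfbr3, or betaglycan, at 36.1 and 35.9 CPM in SG G1-ILCs, against 1.80 and 4.08 CPM in AL NK cells (log2 fold change 3.62 ± 0.68, edgeR adjusted p = 0.000184; 4.29 without AL NK 2). For Tgfbr1, Tgfbr2 and Tgfbr3, no SG library overlapped an NK library. The receptor-regulated SMADs Smad2 and Smad3, which carry the signal, were lower: Smad3 was at 75.6 and 88.7 CPM in SG G1-ILCs, against 215 and 262 CPM in AL NK cells (log2 fold change -1.54 ± 0.19, edgeR adjusted p = 4.32e-07). Smad2 was at 50.8 and 45.2 CPM in SG G1-ILCs, against 102 and 90.1 CPM in AL NK cells (log2 fold change -1.001). Smad4, their common partner, was at 44.8 and 41.9 CPM in SG G1-ILCs, against 37.7 and 38.8 CPM in AL NK cells and was not called (log2 fold change 0.18 ± 0.28, edgeR adjusted p = 0.692).

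Among the pathway's inhibitors, Pmepa1 and Ldlrad4 had the widest differences, while the ubiquitin ligases Smurf1 and Smurf2 were not called (log2 fold changes -0.30 and 0.73, edgeR adjusted p = 0.665 and 0.121). Pmepa1, which sequesters receptor SMADs, was at 323 and 254 CPM in SG G1-ILCs, against 2.16 and 1.20 CPM in AL NK cells (log2 fold change 7.36 ± 0.47, edgeR adjusted p = 2.69e-12). Ldlrad4, its relative with the same function, was at 704 and 591 CPM in SG G1-ILCs, against 9.20 and 9.35 CPM in AL NK cells (log2 fold change 6.12 ± 0.36, edgeR adjusted p = 5.93e-13). Both were low in liver ILC1s (2.44 and 4.71 CPM in AL 7R- ILC1s), and LPL ILC1s held 108 and 34.8 CPM, below SG G1-ILCs (log2 fold changes over LPL ILC1s 1.42 and 4.22, edgeR adjusted p = 0.000123 and 3.01e-13). Ldlrad4 overlaps Fam210a on the opposite strand.

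The SMAD corepressors Skil and Ski were at 1125 and 1330.1 CPM and 288 and 264 CPM in SG G1-ILCs, against 92.9 and 89.4 CPM and 35.4 and 31.2 CPM in AL NK cells (log2 fold changes 3.75 and 3.05). Smad7, the inhibitory SMAD, was at 155 and 129 CPM in SG G1-ILCs, against 25.8 and 22.1 CPM in AL NK cells (log2 fold change 2.57). Tgif1, a further corepressor, was at 295 and 333 CPM in SG G1-ILCs, against 42.6 and 44.1 CPM in AL NK cells (log2 fold change 2.86). LPL ILC1s held 1051 CPM of Skil, 902 of Tgif1, 88.9 of Ski and 80.4 of Smad7. Over these, the log2 fold changes of SG G1-ILCs were 0.22, -1.52, 1.63 and 0.82 (edgeR adjusted p = 0.380, 3.45e-08, 1.96e-07 and 0.00919). The TGF-β-linked surface gene Nt5e, encoding the ectonucleotidase CD73, was at 116 and 202 CPM in SG G1-ILCs, against 16.6 and 16.5 CPM in AL NK cells (log2 fold change 3.26 ± 0.27, edgeR adjusted p = 4.33e-10).

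The cytotoxic granule genes were divided between the groups. Of 27, 22 were tested, 7 were higher and 8 lower, with a median of -0.08. Prf1, encoding perforin, was at 648 and 757 CPM in SG G1-ILCs, against 1778 and 1949 CPM in AL NK cells (log2 fold change -1.41 ± 0.15, edgeR adjusted p = 3.50e-08). With BM NK cells in place of AL NK cells, a setting added after seeing the data, Prf1 was not called (log2 fold change -0.01, edgeR adjusted p = 0.984). Gzma, the tryptase granzyme of resting NK cells, was at 1382 and 1031 CPM in SG G1-ILCs, against 6984 and 7079 CPM in AL NK cells (log2 fold change -2.54 ± 0.23, edgeR adjusted p = 1.46e-09). Both genes stayed well read in SG G1-ILCs. Gzmm, an NK cell granzyme, was at 0 and 1.01 CPM in SG G1-ILCs, against 18.2 and 16.1 CPM in AL NK cells (log2 fold change -4.96 ± 0.87, edgeR adjusted p = 7.66e-05; -4.06 without SG G1-ILC 1 and -9.43 without SG G1-ILC 2). Nkg7, needed for granule release, was at 2874 and 2405 CPM in SG G1-ILCs, against 4224 and 3942 CPM in AL NK cells (log2 fold change -0.63). Serpinb9b, an inhibitor of a granzyme, was at 0 and 2.27 CPM in SG G1-ILCs, against 209 and 279 CPM in AL NK cells (log2 fold change -7.65 ± 0.74, edgeR adjusted p = 5.98e-09; -6.73 without SG G1-ILC 1 and -13.26 without SG G1-ILC 2). Both SG libraries were below both NK libraries for each of these.

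Gzmb, the caspase-activating granzyme, was at 2765 and 2387 CPM in SG G1-ILCs, against 1014 and 1412 CPM in AL NK cells (log2 fold change 1.09 ± 0.22, edgeR adjusted p = 0.000366). Gzmc, an orphan granzyme of activated killer cells, was at 1084 and 547 CPM in SG G1-ILCs, against 1.80 and 1.92 CPM in AL NK cells (log2 fold change 8.76 ± 0.56, edgeR adjusted p = 2.47e-12). Both were higher without overlap, and the granule proteoglycan Srgn was higher with them, at 1127 and 1069.8 CPM in SG G1-ILCs, against 225 and 275 CPM in AL NK cells (log2 fold change 2.14). Fasl, the death ligand, was at 712 and 672 CPM in SG G1-ILCs, against 344 and 362 CPM in AL NK cells (log2 fold change 0.97). Gzmc was read in AL 7R- ILC1s at 239 CPM and was lower in liver ILC1s (log2 fold change of SG G1-ILCs over them 2.23, edgeR adjusted p = 4.20e-08). In LPL ILC1s the mean was 492 CPM, near the 547 CPM of SG G1-ILC 2.

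Gzmb, Gzmc and the mast cell protease gene Cma1 lie in 1 cluster on chr14:55941451-56262260 (mm10, 320810 bases, 15 protein-coding genes). Cma1, a chymase that mouse NK cells transcribe, was at 0 and 0.253 CPM in SG G1-ILCs, against 243 and 238 CPM in AL NK cells, which is 1807-fold lower (95% counting interval 324 to 71389); the fitted log2 fold change was -10.57 (edgeR adjusted p = 4.52e-12; -9.76 without SG G1-ILC 1 and -13.24 without SG G1-ILC 2). The span given for the cluster was set to run from Cma1 to Gzmb, with granzyme and mast cell protease genes between them. Within it, Cma1 was far lower, Gzmc far higher and Gzmb moderately higher in SG G1-ILCs than in AL NK cells. Of its protein-coding genes, 12 were under 3 CPM in all 4 libraries. Gzme was at 2.54 and 0.253 CPM in SG G1-ILCs and 0 in AL NK cells and was not called (edgeR adjusted p = 0.0577).

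The start-site windows of Gzmc and Gzmb are shown because these were the genes of the cluster called higher. Gzmf, which was under 3 CPM, is shown beside them because its window holds the same motifs. The sequences run from 250 bases before to 50 after the start and come from RefSeq on GRCm38.p6; all 3 are on the minus strand and are written 5′ to 3′ on that strand. Capitals mark RUNX motifs (TGTGGTT or its reverse complement) and cAMP response element (CRE) motifs (TGACGTC or its reverse complement, overlapping matches joined).
Gzmc chr14:56234608-56234907: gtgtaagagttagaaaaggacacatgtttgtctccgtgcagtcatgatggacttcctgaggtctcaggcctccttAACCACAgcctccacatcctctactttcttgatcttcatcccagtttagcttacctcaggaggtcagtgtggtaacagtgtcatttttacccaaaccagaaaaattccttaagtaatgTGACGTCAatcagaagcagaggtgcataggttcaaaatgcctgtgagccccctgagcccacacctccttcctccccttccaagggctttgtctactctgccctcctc
Gzmb chr14:56262285-56262584: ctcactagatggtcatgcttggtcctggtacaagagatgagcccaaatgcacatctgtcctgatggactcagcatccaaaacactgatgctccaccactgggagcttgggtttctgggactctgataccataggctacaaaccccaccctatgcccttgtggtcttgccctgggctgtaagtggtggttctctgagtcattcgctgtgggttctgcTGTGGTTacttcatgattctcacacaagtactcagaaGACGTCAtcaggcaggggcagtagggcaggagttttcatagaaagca
Gzmf chr14:56211358-56211657: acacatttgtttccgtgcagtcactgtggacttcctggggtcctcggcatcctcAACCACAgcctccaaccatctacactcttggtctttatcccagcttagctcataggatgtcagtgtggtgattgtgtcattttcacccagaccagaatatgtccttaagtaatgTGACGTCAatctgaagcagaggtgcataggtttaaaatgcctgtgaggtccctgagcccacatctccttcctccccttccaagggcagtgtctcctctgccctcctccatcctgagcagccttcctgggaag
Counted from the RefSeq start site, the RUNX match ended at base -169 in Gzmc, -28 in Gzmb and -190 in Gzmf, and the CRE match ended at -50, 10 and -75. The annotation used for the cluster starts Gzmb at base 56262260, and the whole Gzmb window lies upstream of that base. Positions in Gzmb thus depend on the start site used. On either strand, RUNX matches were in 8 of 24 cytotoxic gene windows matched by symbol (33.3%) and in 5.37% of all 27025 windows, and CRE matches, searched after seeing the data, were in 4 of 24 and in 3.33%. Apart from Gzma and Rab27a, the RUNX windows were those of cluster genes (Gzmb, Gzmc, Gzmd, Gzme, Gzmf and Gzmg). All CRE windows were of the cluster too (Gzmb, Gzmc, Gzmf and Gzmg). The Gzmc and Gzmf windows are much alike, so these matches are not separate observations. Gzmf had both motifs and almost no reads, so a match is a description of the letters only. Over genes called higher, lower and not called, the T-box letters GGTGTGA were in 2.87%, 3.85% and 3.47% of windows, the RUNX letters in 4.11%, 4.16% and 3.83%, and the KLF letters CACACCC in 8.42%, 8.08% and 8.38%, with windows matched for 1532 of 2132, 1274 of 1686 and 7080 of 10303 genes by symbol.

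Secreted factors were higher than in AL NK cells in the main: of 40 cytokines and chemokines, 32 were tested, 18 were higher and 3 lower, with a median of 2.02. Against LPL ILC1s, the other digested group, 3 of them were higher and 14 lower, with a median of -0.63. Ifng, the cytokine that defines G1-ILCs, was at 68.8 and 87.2 CPM in SG G1-ILCs, against 89.5 and 78.4 CPM in AL NK cells and was not called (log2 fold change -0.11 ± 0.28, edgeR adjusted p = 0.827); the groups overlapped. Vegfa, the endothelial growth factor, was at 587 and 694 CPM in SG G1-ILCs, against 13.0 and 11.3 CPM in AL NK cells (log2 fold change 5.71 ± 0.27, edgeR adjusted p = 8.20e-15). It was under 1 CPM in liver ILC1s (0.522 CPM in AL 7R- ILC1s) and at 497 CPM in LPL ILC1s. Calca, encoding calcitonin and the neuropeptide CGRP, was at 139 and 197 CPM in SG G1-ILCs, against 0.180 and 0 CPM in AL NK cells, which is 1647-fold higher (95% counting interval 295 to 65096), and was at 183 CPM in LPL ILC1s. With 1 read in NK libraries its fitted log2 fold change of 10.36 was 12.70 without AL NK 1 and 9.67 without AL NK 2. Vegfa and Calca were thus genes that SG G1-ILCs shared with LPL ILC1s and not with AL NK cells. Xcl1, the chemokine by which NK cells and ILC1s attract dendritic cells, was at 469 and 395 CPM in SG G1-ILCs, against 69.8 and 92.8 CPM in AL NK cells (log2 fold change 2.41 ± 0.20, edgeR adjusted p = 3.75e-10). Ltb, lymphotoxin β, was at 411 and 313 CPM in SG G1-ILCs, against 114 and 102 CPM in AL NK cells (log2 fold change 1.74).

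Ccl5, a chemokine stored by NK cells, was at 985 and 962 CPM in SG G1-ILCs, against 2841 and 2995 CPM in AL NK cells and lower (log2 fold change -1.58 ± 0.13, edgeR adjusted p = 3.53e-10). Ccl3 was at 162 and 113 CPM in SG G1-ILCs, against 50.9 and 126 CPM in AL NK cells and was not called (log2 fold change 0.65 ± 0.37, edgeR adjusted p = 0.208). AL NK 2 held more of it than SG G1-ILC 2, and without AL NK 2 Ccl3 was called (log2 fold change 1.42, edgeR adjusted p = 0.0188). Some higher factors of the list are made by macrophages: Il1b was at 19.7 and 71.5 CPM in SG G1-ILCs, against 0.361 and 0.240 CPM in AL NK cells (log2 fold change 7.10 ± 1.14, edgeR adjusted p = 3.17e-05; 7.75 without SG G1-ILC 1 and 5.90 without SG G1-ILC 2). Cxcl2 was at 40.9 and 48.3 CPM in SG G1-ILCs, against 0.361 and 0.240 CPM in AL NK cells (log2 fold change 7.07 ± 0.62, edgeR adjusted p = 9.82e-10) and Cxcl16 at 59.5 and 63.4 CPM in SG G1-ILCs, against 1.26 and 0 CPM in AL NK cells (log2 fold change 6.42 ± 0.81, edgeR adjusted p = 6.82e-07; 11.25 without AL NK 1 and 5.57 without AL NK 2). The myeloid markers were higher in the same libraries, with sums of 4227 to 4430 CPM in SG G1-ILCs and 232 to 238 CPM in AL NK cells, and their part in these 3 differences was not tested.

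Receptors for cytokines changed in both directions: 9 of 30 tested were higher and 7 lower, with a median of 0.10. Over all genes, 15.1% were higher and 11.9% lower. Against LPL ILC1s, 5 of the receptors were higher and 15 lower. The IL-18 receptor was lower in both chains: Il18r1 was at 7.90 and 9.35 CPM in SG G1-ILCs, against 165 and 218 CPM in AL NK cells (log2 fold change -4.46 ± 0.33, edgeR adjusted p = 3.77e-11). Il18rap was at 27.1 and 44.5 CPM in SG G1-ILCs, against 794 and 822 CPM in AL NK cells (log2 fold change -4.49 ± 0.17, edgeR adjusted p = 1.22e-16). Both chains were far below the NK libraries. Il12rb2, a chain of the IL-12 receptor, was at 177 and 194 CPM in SG G1-ILCs, against 325 and 366 CPM in AL NK cells (log2 fold change -0.89). It overlaps Serbp1 on the opposite strand and was not called with BM NK cells in place of AL NK cells (log2 fold change -0.02). Il10ra was at 68.2 and 100.3 CPM in SG G1-ILCs, against 344 and 303 CPM in AL NK cells (log2 fold change -1.94). Both IL-18 receptor chains and Il12rb2 were thus among the lower genes. Il12rb1, the other IL-12 receptor chain, was not called (log2 fold change -0.16, edgeR adjusted p = 0.624), and neither was Ifng.

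Il21r, the receptor for IL-21, was at 1034 and 1244 CPM in SG G1-ILCs, against 25.8 and 24.9 CPM in AL NK cells (log2 fold change 5.49 ± 0.17, edgeR adjusted p = 8.22e-19). Il4ra, the receptor chain for IL-4, was at 449 and 538 CPM in SG G1-ILCs, against 72.0 and 68.1 CPM in AL NK cells (log2 fold change 2.81 ± 0.15, edgeR adjusted p = 5.96e-14). Il2rb, the β chain for IL-2 and IL-15, on which NK cells depend, was at 4138 and 4512 CPM in SG G1-ILCs, against 2944 and 2565 CPM in AL NK cells (log2 fold change 0.65 ± 0.08, edgeR adjusted p = 1.00e-06). All 3 were higher without overlap. Il7r, which separates liver ILC1 subsets, was at 15.2 and 24.5 CPM in SG G1-ILCs, against 26.7 and 17.5 CPM in AL NK cells and was not called (log2 fold change -0.16 ± 0.29, edgeR adjusted p = 0.737), and AL 7R+ ILC1s held 541 CPM.

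Of 29 costimulatory and checkpoint receptors tested, 14 were higher and 4 lower, with a median of 0.58. Against LPL ILC1s, 6 of these receptors were higher and 15 lower. Tnfrsf1b, encoding TNF receptor 2, was at 868 and 1138 CPM in SG G1-ILCs, against 224 and 203 CPM in AL NK cells (log2 fold change 2.23 ± 0.15, edgeR adjusted p = 4.90e-12). Tnfrsf9, encoding 4-1BB, was at 485 and 442 CPM in SG G1-ILCs, against 156 and 202 CPM in AL NK cells (log2 fold change 1.37 ± 0.25, edgeR adjusted p = 0.000121). Both were higher without overlap. Ctla4, the inhibitory receptor for B7 ligands, was low, at 8.18 and 6.06 CPM in SG G1-ILCs, and was at 0 in AL NK cells, at least 23.1-fold higher (edgeR adjusted p = 2.48e-05). Adora2a, an adenosine receptor, was at 50.8 and 45.0 CPM in SG G1-ILCs, against 164 and 140.3 CPM in AL NK cells and lower (log2 fold change -1.67), in libraries where Nt5e, which makes adenosine, was higher.

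**Figure D5:**
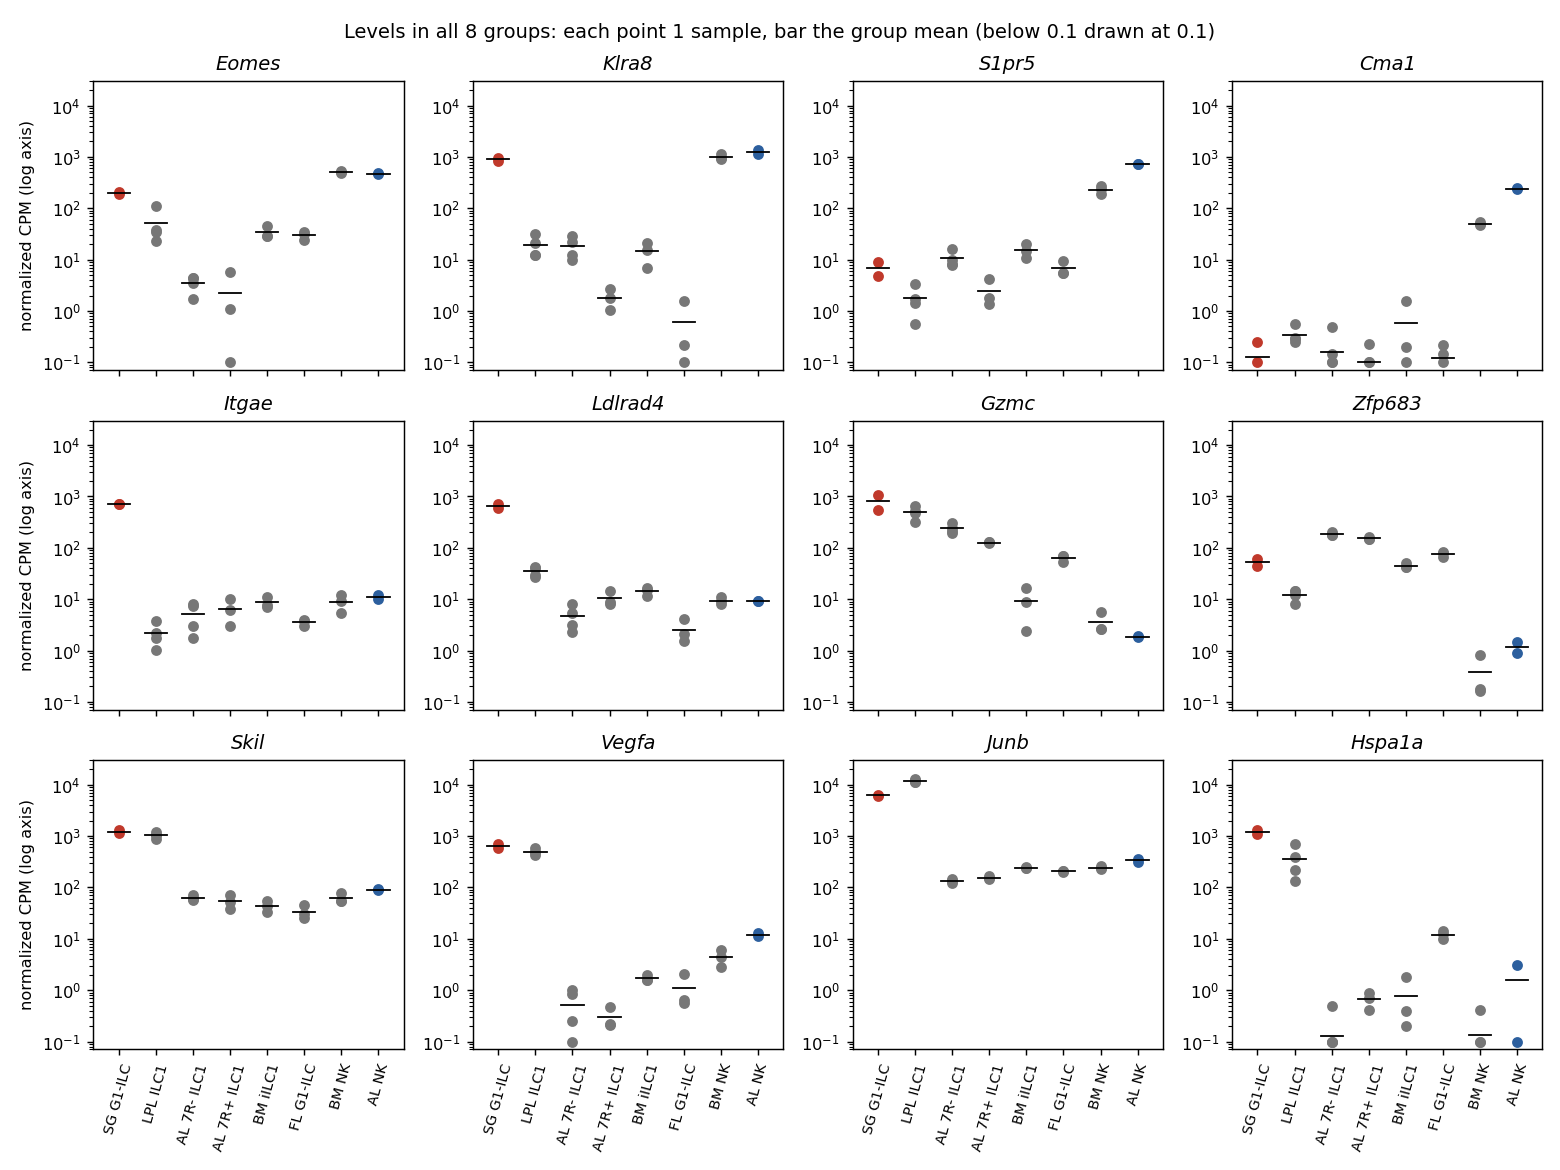
CPM (log scale) of 12 genes in all 8 groups, each point 1 sample, in the order SG G1-ILCs, LPL ILC1s, AL 7R- ILC1s, AL 7R+ ILC1s, BM immature ILC1s, FL G1-ILCs, BM NK cells and AL NK cells. Klra8 in SG G1-ILCs was near its level in AL NK cells, Eomes lay between AL NK cells and liver ILC1s, Itgae and Ldlrad4 stood highest there, and Junb and Skil were high in SG G1-ILCs and LPL ILC1s.

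Immediate early genes are transcribed within minutes of a stimulus, including the handling of cells, and heat shock genes answer unfolded protein. Both lists were higher in SG G1-ILCs. Of 46 early response genes, 41 were higher and none lower, with a median of 2.27. Their sum was 35001 to 37024 CPM in SG G1-ILCs and 4680 to 5106 CPM in AL NK cells, and it was 61522 to 69856 CPM in LPL ILC1s. Against LPL ILC1s, 7 of the 46 were higher and 25 lower. The 2 digested tissues were therefore the groups with the highest sums, and the part of the digestion in the differences was not tested.

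The AP-1 genes were among those with the widest difference. Fos was at 1823 and 1729.6 CPM in SG G1-ILCs, against 4.33 and 11.99 CPM in AL NK cells (log2 fold change 7.83 ± 0.50, edgeR adjusted p = 1.98e-12; 7.20 without AL NK 1 and 8.66 without AL NK 2). Fosb was at 377 and 339 CPM in SG G1-ILCs, against 2.16 and 0.719 CPM in AL NK cells (log2 fold change 7.85; 8.90 without AL NK 1). Jun was at 1299 and 1176 CPM in SG G1-ILCs, against 16.6 and 26.6 CPM in AL NK cells (log2 fold change 5.86 ± 0.22, edgeR adjusted p = 6.63e-17). Junb was at 6326 and 6006 CPM in SG G1-ILCs, against 319.8 and 356 CPM in AL NK cells (log2 fold change 4.19 ± 0.10, edgeR adjusted p = 3.18e-21), and LPL ILC1s held 11991 CPM; it overlaps Prdx2 on the opposite strand. The NK libraries held few reads of Fos and Fosb. Egr1, a zinc finger factor induced by receptor signals, was at 503 and 366 CPM in SG G1-ILCs, against 30.5 and 119.9 CPM in AL NK cells (log2 fold change 2.55 ± 0.51, edgeR adjusted p = 0.000414; 1.85 without AL NK 1 and 3.82 without AL NK 2), with NK replicates far apart but below both SG libraries.

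The orphan nuclear receptors Nr4a1 and Nr4a2 were at 1261 and 1328 CPM and 1034 and 922 CPM in SG G1-ILCs, against 42.2 and 136 CPM and 20.02 and 50.8 CPM in AL NK cells (log2 fold changes 3.88 and 4.81). Nr4a1 had 3.24 without AL NK 1 and 4.93 without AL NK 2, and Nr4a2 had 5.60 without AL NK 2. Rgs1, which dampens chemokine receptor signals, was at 3601 and 3692 CPM in SG G1-ILCs, against 61.2 and 56.6 CPM in AL NK cells (log2 fold change 5.95 ± 0.14, edgeR adjusted p = 3.48e-21). Rgs2 was at 1668 and 1377 CPM in SG G1-ILCs, against 44.9 and 52.0 CPM in AL NK cells (log2 fold change 4.98). Both Rgs genes were higher without overlap. Crem, a factor of the cAMP pathway, was at 1432 and 1292 CPM in SG G1-ILCs, against 30.3 and 38.1 CPM in AL NK cells (log2 fold change 5.32 ± 0.27, edgeR adjusted p = 4.25e-14). Atf3, a stress factor, was at 253 and 161 CPM in SG G1-ILCs, against 0.902 and 0.479 CPM in AL NK cells (log2 fold change 8.12). Litaf, a lysosomal regulator of TNF, was at 1745 and 1792 CPM in SG G1-ILCs, against 57.2 and 72.9 CPM in AL NK cells (log2 fold change 4.77). All were higher in both SG libraries than in either NK library.

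Dusp1, the phosphatase that ends MAP kinase signals, was at 2457 and 2281 CPM in SG G1-ILCs, against 20.4 and 39.3 CPM in AL NK cells (log2 fold change 6.33 ± 0.27, edgeR adjusted p = 8.33e-16). Tnfaip3, encoding A20, which ends NF-κB signals, was at 1271 and 1529.7 CPM in SG G1-ILCs, against 108 and 91.3 CPM in AL NK cells (log2 fold change 3.81 ± 0.23, edgeR adjusted p = 5.46e-13). Both are induced by the signals they end. Of 28 NF-κB pathway genes, 14 were higher and 2 lower, with a median of 0.68, and none was higher and 24 were lower against LPL ILC1s. The Dusp1 window is shown because it holds 2 CRE matches, in capitals as above, ending at bases -185 and -136 (minus strand, RefSeq, GRCm38.p6).
Dusp1 chr17:26508423-26508722: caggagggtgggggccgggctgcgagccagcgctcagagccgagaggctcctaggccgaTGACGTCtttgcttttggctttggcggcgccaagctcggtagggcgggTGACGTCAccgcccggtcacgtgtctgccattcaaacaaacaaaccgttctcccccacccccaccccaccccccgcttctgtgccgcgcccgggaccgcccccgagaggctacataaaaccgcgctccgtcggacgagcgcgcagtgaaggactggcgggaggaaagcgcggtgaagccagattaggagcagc
CRE letters were in the windows of 4 of 35 early response genes matched (Btg2, Dusp1, Nr4a3 and Ppp1r15a), in 8.03% of windows of genes called higher, 4.00% of those called lower and 5.59% of those not called. The AP-1 letters TGANTCA were in 6.07%, 5.57% and 4.56% of the same windows and in 7.93% of all windows.

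Of 22 heat shock genes, 15 were higher and 1 lower, with a median of 0.94, and their sum was 18126 to 19374 CPM in SG G1-ILCs and 8066 to 8700 CPM in AL NK cells. LPL ILC1s held 21921 to 31006 CPM, and against them 6 were higher and 6 lower. The inducible chaperone genes Hspa1a and Hspa1b, near copies whose reads could be exchanged, were at 1330.5 and 1114 CPM and 2319 and 1963 CPM in SG G1-ILCs, against 0 and 3.12 CPM and 5.77 and 22.5 CPM in AL NK cells. Their log2 fold changes were 9.79 (8.60 without AL NK 1 and 15.58 without AL NK 2) and 7.31 (6.56 without AL NK 1 and 8.52 without AL NK 2), and they were also higher than in LPL ILC1s (1.76 and 1.39, edgeR adjusted p = 0.000287 and 0.00318). Dnajb1, their co-chaperone, was at 1755 and 1393 CPM in SG G1-ILCs, against 168 and 205 CPM in AL NK cells (log2 fold change 3.08 ± 0.30, edgeR adjusted p = 6.04e-09). All 3 genes were higher in both SG libraries. Hsph1, a nucleotide exchange factor for them, was at 613 and 609 CPM in SG G1-ILCs, against 198 and 239 CPM in AL NK cells (log2 fold change 1.48 ± 0.29, edgeR adjusted p = 0.000306). The constitutive chaperone genes Hspa8 and Hsp90ab1 had log2 fold changes of 0.55 and 0.75. Letters of a heat shock element (GAANNTTCNNGAA), searched after seeing the data, were in 4 of 16 matched windows of this list, those of Chordc1, Dnajb6, Hspe1 and Hsph1, and in 0.529% of all windows.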

How the data were processed

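Whole-transcriptome libraries (SMART-seq HT, paired-end) were made from sorted cells. The deposited table holds raw counts per gene, made by the authors with fastp 0.23.0, HISAT2 2.1.0 on mm10 and featureCounts (Subread 1.6.5); the annotation release, strand setting and treatment of multi-mapping reads are not given in the sources used here. Total counts ran from 2302643 to 7995906 a library. PCR copies were not removed by molecular identifiers, so counting intervals cover counting error only.

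Counts were filtered with filterByExpr (minimum count 10), scaled by TMM and fitted with edgeR 4.0.16 (quasi-likelihood) in R 4.3.3 over all 8 groups. FL G1-ILC replicates 2 and 3, whose counts differed by little more than sampling noise (chi-square per degree of freedom 1.18, against 3.51 to 12.4 for other pairs), were summed and counted as 1 sample, giving 24. p-values were Benjamini-Hochberg adjusted. Folds against a group at 0 used a floor of 3 counts over its 2 libraries; with 1 to 3 counts, ratios carry an exact 95% conditional binomial interval. SG replicates had 6.80 and AL NK replicates 6.96 chi-square per degree of freedom.

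Named genes were up to 12 a direction ranked by absolute log2 fold change, called, without overlap and averaging at least 32 CPM, and members of the gene lists, picked with their values seen, apart from some items that are not reported here. The members and lists were chosen with earlier results of these data known. Of the gene identifiers, 849 of 46078 had no match in the annotation used for names. Alternatives covered scaling, DESeq2 1.42.0, filters, samples in the fit, thinning, a replicate block, thresholds and each library left out. Genes on the opposite strand overlapped 36 of 157 named genes.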

Additional observations from a re-analysis of the deposited data

How the results depend on the processing

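The counts of 2132 higher and 1686 lower genes stayed within 1.5 times under DESeq2 (2292 and 1724), RLE scaling (2221 and 1602), no count filter (1833 and 1441), a stricter filter (2172 and 1732), 25 separate libraries (2187 and 1746), the 4 libraries alone (2263 and 1702), adult groups alone (2073 and 1608), thinned counts (2127 and 1668), the fit without LPL ILC1s (2312 and 1852) and BM NK cells in place of AL NK cells (2395 and 2069), the last 2 chosen after seeing the data. With 1 library left out, 2625 to 2802 genes were called, 1509 to 1663 higher and 1020 to 1200 lower, the fewest lower ones without SG G1-ILC 1. The cause was not tested beyond the smaller number of samples. A limit of 1 on the absolute log2 fold change left 2343 genes (1417 higher, 926 lower), and an adjusted p under 0.01 left 2528 (1510 higher, 1018 lower). Against the mean of liver ILC1s, 3208 to 3385 genes (1956 to 2006 higher, 1252 to 1379 lower) were called with 1 SG library left out, 2704 (1569 higher, 1135 lower) with the limit on size, and 1413 lower ones at an adjusted p under 0.01.

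Of 143 called genes named and followed through the settings, 130 kept their call in every setting, and all kept their direction with any 1 of the 4 libraries left out. Directions that turned were those of genes near no change, apart from the change of reference. With BM NK cells as reference, Ifng was at 1.03, Tbx21 at 0.21, Il7r at 2.53, Klra7 at -0.11, Klra3 at 0.15 and Cx3cr1 at 3.13 (log2 fold changes). With 1 library left out, Ifng ran from -0.29 to 0.046 (above 0 without SG G1-ILC 1), Il7r from -0.56 to 0.19 (above 0 without SG G1-ILC 1 or AL NK 1), Klra7 from -0.14 to 0.25 and Irf8 from -0.15 to 0.28 (both below 0 without SG G1-ILC 2 or AL NK 1). The cause was not tested. The replicate numbers did not pair the libraries (correlation of deviations between SG G1-ILC 1 and AL NK 1 0.0178), and a fit with the replicate block called 2156 higher and 1696 lower genes and changed no call of a named gene. Depth limited genes near the floors of 0.400 CPM in SG G1-ILCs and 0.309 CPM in AL NK cells.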

Other observations

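Some genes of iron and amino acid handling differed between the groups, in lists not described above. Of 16 tested genes of amino acid and iron uptake, 8 were higher and 3 lower in SG G1-ILCs, with a median log2 fold change of 0.57. Over all genes, 15.1% were higher and 11.9% lower. Against LPL ILC1s, the other digested group, 2 were higher and 8 lower, with a median of -0.63. In that comparison 18.7% of all genes were higher and 16.8% lower. Fth1, the ferritin heavy chain that stores iron, was at 4061 and 4158 CPM in SG G1-ILCs, against 707 and 613 CPM in AL NK cells (log2 fold change 2.64 ± 0.11, edgeR adjusted p = 2.68e-16). Slc3a2, encoding the CD98 heavy chain of amino acid transporters, was at 926 and 840.4 CPM in SG G1-ILCs, against 155 and 138 CPM in AL NK cells (log2 fold change 2.59 ± 0.14, edgeR adjusted p = 5.96e-14), and Odc1, the first enzyme of polyamine synthesis, at 398 and 514 CPM in SG G1-ILCs, against 45.5 and 29.0 CPM in AL NK cells (log2 fold change 3.60 ± 0.21, edgeR adjusted p = 4.01e-13). Both SG libraries were above both AL NK libraries for these genes. Of 25 sterol and fatty acid genes tested, 9 were higher and 3 lower (36% and 12%), and against LPL ILC1s 5 were higher and 7 lower. Cyp51, a sterol demethylase, was at 114 and 142 CPM in SG G1-ILCs, against 13.9 and 12.2 CPM in AL NK cells (log2 fold change 3.29, with Akap9 on the opposite strand), and Insig1, which holds sterol synthesis in check, at 85.2 and 90.0 CPM in SG G1-ILCs, against 12.6 and 10.1 CPM in AL NK cells (log2 fold change 2.94). Glycolysis and hypoxia genes went both ways, with 9 of 32 higher and 5 lower (28.1% and 15.6%, against 15.1% and 11.9% of all genes). Pfkp, the platelet form of phosphofructokinase, was at 133 and 152 CPM in SG G1-ILCs, against 500.4 and 552 CPM in AL NK cells (log2 fold change -1.89), and Eno1, an enolase, at 651 and 653 CPM in SG G1-ILCs, against 1165 and 1162 CPM in AL NK cells (log2 fold change -0.84), both lower.

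Of 33 interferon-stimulated genes tested, 3 were higher and 10 lower, with a median of -0.62, and Isg20, an exonuclease, was the one with the widest difference upwards (log2 fold change 5.16). Of 34 cell cycle genes, 1 was higher and 2 lower. MHC class I and peptide loading genes were 2 higher and 2 lower of 19 (10.5% each), near the 15.1% higher and 11.9% lower over all genes. Of the BCL2 family, 29.4% were higher and 17.6% lower. In the BCL2 family, 5 of 17 tested were higher and 3 lower: Bcl2l11, encoding the death-promoting protein BIM, was at 466 and 721 CPM in SG G1-ILCs, against 149 and 151 CPM in AL NK cells (log2 fold change 1.99 ± 0.15, edgeR adjusted p = 4.70e-11), whereas Bcl2l1, encoding the survival protein BCL-XL, was at 54.7 and 48.8 CPM in SG G1-ILCs, against 136 and 141 CPM in AL NK cells (log2 fold change -1.42 ± 0.17, edgeR adjusted p = 1.93e-07). Bcl2 was at 774 and 823 CPM in SG G1-ILCs, against 890.0 and 932 CPM in AL NK cells and was not called (log2 fold change -0.19 ± 0.11, edgeR adjusted p = 0.231). Genes of mitochondrial DNA held 0.509% and 0.525% of counts in SG libraries and 0.332% and 0.405% in AL NK libraries, and ribosomal protein genes 2.56% and 2.23% in SG libraries and 1.46% and 1.49% in AL NK libraries. Osgin1, an oxidative stress gene, was at 292 and 320.4 CPM in SG G1-ILCs and at 0 in both AL NK libraries, at least 991-fold higher.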
